A study of Mus musculus with 15 samples.

Results

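Mammary tumours of MMTV-PyMT mice were ordered by a milk score, the mean log2 level of the 4 milk genes Csn2, Csn3, Wap and Lalba on each array. The 5 tumours of highest score were set against the 5 of lowest score, 10 of the 15 tumours in the series. The 15 tumours were spontaneous and were taken at 20 weeks of age, 8 from mice on the B6 (C57BL/6) background and 7 from Wsh mice. All the mice carried MMTV-PyMT, the polyoma middle T oncogene under the promoter of the mouse mammary tumour virus, which is active in mammary epithelium. Wsh is the usual name of the Kit W-sh allele, an inversion next to the stem cell factor receptor gene, and mice with 2 copies of it have no mast cells as adults. The labels name no milk groups. The high-score group held 2 B6 tumours (replicates 1 and 7) and 3 Wsh tumours (replicates 2, 6 and 7). The low-score group held 3 B6 tumours (replicates 3, 5 and 8) and 2 Wsh tumours (replicates 1 and 5). No treatment is named, and nothing in the labels tells whether some tumours came from 1 mouse, so a p-value here covers only the variation among these pieces of tissue, which may be partly technical.

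Each tumour gave 1 Agilent 1-colour array, so every level below is a log2 signal minus the 75th percentile of its array. Before that scaling the 75th percentile ran from 3328 to 6406 signal units, and 55.7% to 73.4% of spots were well above background by the scanner's own call. Levels of different genes are not compared, since each probe has its own response. Epcam, an adhesion protein of epithelium, was well above background on all 10 arrays compared, with 3.32 ± 0.39 (SD, n = 5) in high-score and 3.64 ± 0.38 (SD, n = 5) in low-score tumours. Mcpt4, which encodes a mast cell chymase, was called above background by the scanner on the 5 B6 arrays among these 10 and on 0 of the 5 Wsh arrays. Tpsb2, Gata2 and Hdc, which are also in the mast cell list below, did not show this split. Tpsb2 and Gata2 were called above background on all 10 arrays, and Hdc on all 5 Wsh arrays. In pieces of tissue such as these, fewer cells of a type and less RNA per cell cannot be told apart.

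Milk is made by alveolar cells of the mammary gland in late pregnancy and lactation. Prolactin acts through its receptor, the kinase JAK2 and the transcription factor STAT5, and together with glucocorticoid and the epithelial factor ELF5 it turns on the casein genes, Wap and Lalba. Csn2 encodes beta-casein, Csn1s1, Csn1s2a and Csn1s2b encode calcium-binding caseins, and Csn3 encodes kappa-casein, which keeps casein micelles in solution. Wap encodes whey acidic protein, and Lalba encodes alpha-lactalbumin, the subunit that makes galactosyltransferase produce lactose. Some of these genes are already on before lactation, and others only near birth. Whether that timing bears on their levels in these tumours was not tested.

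The upstream sequences of the 3 genes below are shown because STAT5 is known to bind a palindrome of the form TTCNNNGAA beside casein genes, and because Csn2, Csn1s1 and Glycam1, with Csn1s2a, are the milk genes that the values below turn on. They are from RefSeq, build GRCm38.p6, and were searched from 250 bases before to 50 bases after each annotated start. The search covered 6 of 8 milk genes with an entry (Csn3 and Csn1s2b had none). Capitals mark TTCNNNGAA, which reads the same on both strands. The Csn2 stretch lies at chr5:87699470-87699558 on the minus strand, that of Csn1s1 at chr5:87666068-87666156 on the plus strand and that of Glycam1 at chr15:103565178-103565266 on the minus strand.
Csn2: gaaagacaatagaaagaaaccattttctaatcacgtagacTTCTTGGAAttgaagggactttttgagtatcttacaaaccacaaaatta
Csn1s1: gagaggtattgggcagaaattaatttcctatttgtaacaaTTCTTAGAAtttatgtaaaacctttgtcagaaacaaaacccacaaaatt
Glycam1: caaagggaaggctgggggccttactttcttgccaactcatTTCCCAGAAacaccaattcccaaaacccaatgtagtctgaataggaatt

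The match began 93 bases before the annotated start in Csn2, 100 before it in Csn1s1 and 145 before it in Glycam1. In Csn1s2a the letters stood 21 bases after the annotated start, as TTCTTAGAA. The windows of Wap and Lalba held none. Of all 32851 windows of this length in the table, 8.30% held at least 1 match, so a match alone is common, and it is a description of the letters and not of binding.

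The order of the tumours came almost wholly from Csn2. The members were chosen by the mean of these 4 genes, so their levels are a description with no test. The score was 4.98 in Wsh replicate 6, 4.64 in Wsh replicate 7, 3.80 in B6 replicate 7, 3.23 in Wsh replicate 2 and 3.22 in B6 replicate 1. At the other end it was 1.96 in B6 replicate 3, 1.87 in Wsh replicate 1, 1.79 in Wsh replicate 5, 1.45 in B6 replicate 8 and 1.20 in B6 replicate 5. The tumours formed a gradient with no gap at either edge. The first tumour below the high-score group was B6 replicate 2 at 3.15, and the first above the low-score group was Wsh replicate 4 at 2.17. Csn2 made up 87.8% of the variance of the score, Wap 8.91%, Lalba 2.81% and Csn3 0.467%.

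Csn2 was 5.78 in Wsh replicate 6, 5.13 in Wsh replicate 7, 2.59 in B6 replicate 7, 0.73 in Wsh replicate 2 and 0.17 in B6 replicate 1. It was -2.97 in Wsh replicate 1, -4.44 in B6 replicate 3, -5.18 in Wsh replicate 5, -6.75 in B6 replicate 5 and -7.60 in B6 replicate 8. The groups did not overlap, with means of 2.88 ± 2.53 (SD, n = 5) and -5.39 ± 1.84 (SD, n = 5), a 308-fold ratio of geometric means. That size depends on the background step, since Csn2 was well above background on 5 of 5 high-score but only 2 of 5 low-score arrays, and it came to 111-fold with another background correction (normexp) and 128-fold in the authors' deposited log2 values. The 2 top Wsh tumours stood above the other 3 of their group, and the 5 tumours between the groups ran from -3.02 to -0.05.

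The other 3 genes of the score did not separate the groups. Csn3 had 6.41 ± 0.14 (SD, n = 5) in high-score and 6.32 ± 0.35 (SD, n = 5) in low-score tumours, and the 15 tumours spanned 0.89 log2 units. The other Csn3 probes, outside the score, went the other way. They had means of 5.05 and 2.84 in high-score against 5.34 and 3.08 in low-score tumours. Lalba had 5.82 ± 0.54 and 5.61 ± 0.67 (SD, n = 5 each), and its highest level of all, 6.80, was in the low-score tumour B6 replicate 3. Wap had 0.79 ± 0.84 and 0.08 ± 1.36 (SD, n = 5 each). B6 replicate 8, with the lowest Csn2 of the series, had the highest Wap at 2.32 and, after scaling, the lowest Csn3 at 5.75. Over the 15 tumours Csn2 had a Pearson r of 0.17 with Csn3, 0.28 with Wap and 0.20 with Lalba, and Csn3 and Wap had -0.57. These describe 15 arrays that share tissue content and scaling. No spot of the 4 probes was saturated. Before scaling, the Csn3 signal ran from 305238 to 385702, and B6 replicate 8 had the highest 75th percentile of the series (6406). The part of the scaling in the low Csn3 of that tumour, and in the r of Csn3 with Wap, was not tested. Csn3, Wap and Lalba were well above background on 15 of 15 arrays, in low-score tumours too. The groups are therefore high and low in Csn2, and a label of milk-gene-high and milk-gene-low is not borne out by Csn3, Wap and Lalba.

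**Figure D1:**
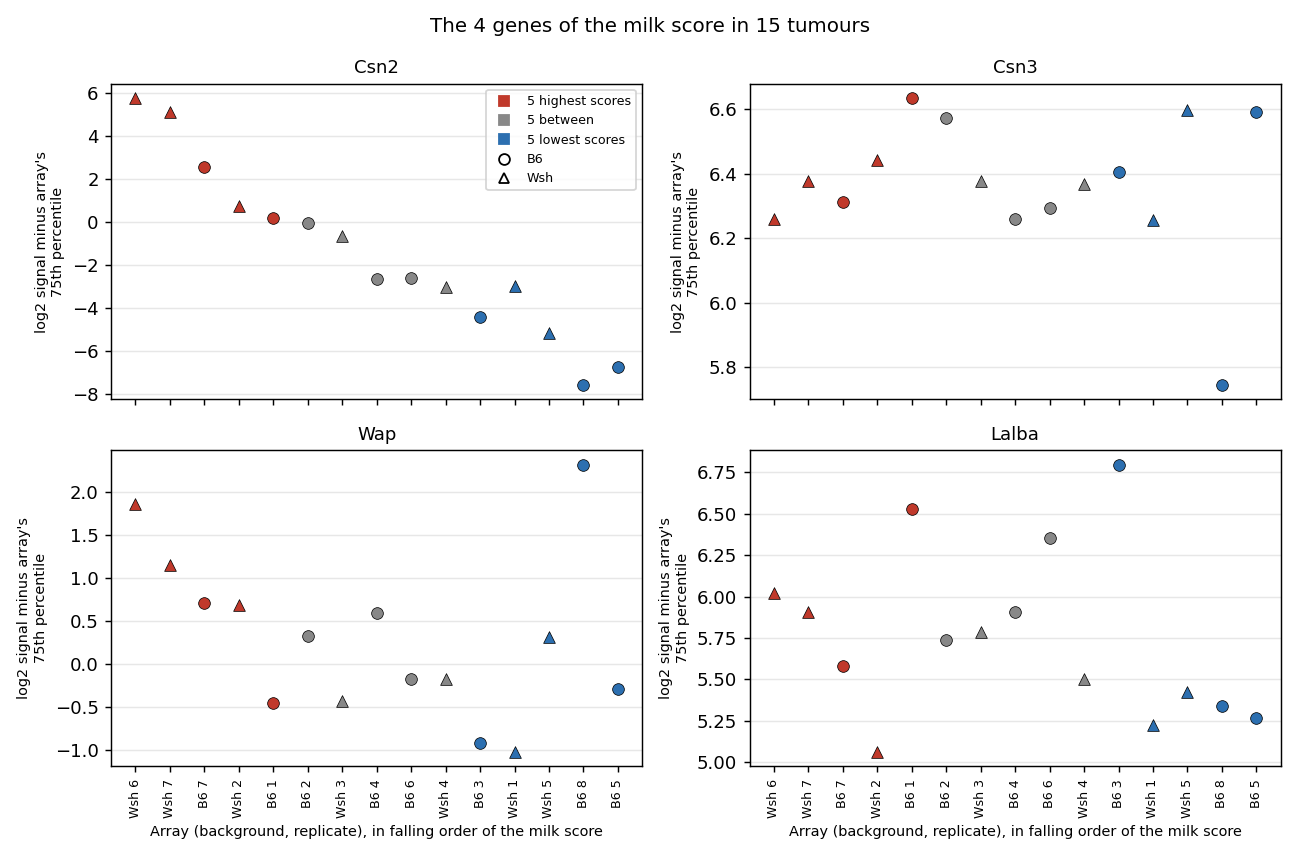
Level of Csn2, Csn3, Wap and Lalba (log2 signal minus the array's 75th percentile, each panel with its own axis) in 15 tumours, in falling order of the milk score. Points are single arrays, colours give the 5 highest, 5 between and 5 lowest scores, and shapes give the background. Csn2 falls from 5.78 to -7.60 along the order, while the groups overlap in the other 3 panels.

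The score did not differ between backgrounds beyond its spread. It was 3.07 ± 1.30 (SD, n = 7) in Wsh and 2.47 ± 0.90 (SD, n = 8) in B6 tumours, a difference of 0.59 (exact permutation test, two-sided, p = 0.316). Arrays came from 2 slides. On slide 1 (4 Wsh, 4 B6) the difference was -0.20 (exact permutation p = 0.657), and on slide 2 (3 Wsh, 4 B6) it was 1.57 (exact permutation p = 0.2, where the smallest possible is 0.0286). The high-score group had 2 tumours on slide 1 and 3 on slide 2, as had the low-score group. Taken singly, Csn2 was 2.65 higher in Wsh than in B6 and Lalba 0.38 lower, with exact permutation p-values adjusted over the 4 genes of 0.409 for both. Csn3 and Wap had differences of 0.03 and 0.08 (adjusted exact permutation p = 0.877 for both).

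With the 4 genes left out, no gene separated high-score from low-score tumours after adjustment. Differences are high minus low from limma with background as a covariate, with the standard error (SE) of the fit. Of 22420 genes, 0 (0%) passed an adjusted p of 0.05, and the lowest adjusted p was 0.816. At an unadjusted p under 0.05 there were 1267 genes (5.65%), 683 higher (3.05%) and 584 lower (2.6%). The groups did not overlap for 73 genes higher (0.326%) and 96 lower (0.428%). The median difference of all genes was 0.001, and 50.2% of them lay above 0.

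That count rested on 1 tumour. Without Wsh replicate 1, a low-score tumour, 401 genes passed (1.79%), of which 363 were higher in high-score tumours (1.62%) and 38 lower (0.169%). In 360 of the 363, Wsh replicate 1 itself was at or above the lowest high-score tumour. In 37 of the 38 it was at or below the highest high-score tumour. Most of these genes thus did not set apart all low-score tumours. Leaving out any other of the 10 tumours gave 0 in limma (608 to 1613 at an unadjusted p under 0.05). With the tumours ordered by Csn2 alone, the high group was the same and Wsh replicate 4 took the place of Wsh replicate 1. Then 295 genes passed (1.34%), and 261 of them were among the 401, which is 88.5% of the shorter and 65.1% of the longer list. These 2 fits share every tumour but Wsh replicate 4, so a large overlap was built in and is no independent support. The swap rested on a Csn2 level of -3.02 in Wsh replicate 4 and -2.97 in Wsh replicate 1. With the tumours ordered by Csn3, Wap and Lalba without Csn2, 0 genes passed in limma (853 at an unadjusted p under 0.05). In that order 3 of 5 high and 2 of 5 low tumours were the same, and 2 tumours crossed to the opposite group. Both of these orders were chosen after the data were seen.

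Among the other milk proteins, Csn1s1, Csn1s2a and Glycam1 had the largest differences, and Wsh replicates 6 and 7 were the 2 highest of the high-score tumours in each. The list of other milk proteins and milk secretion genes had 22 members, all tested, with 15 above 0, a median difference of 0.08 against 0.001 for all genes, and 0 past the adjusted threshold. Its 3 members with an unadjusted p under 0.05 were all higher (Csn1s2a, Glycam1 and Cel), against 3.05% of all genes. Casein genes are known to be regulated together, so they are no independent support for the score.

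Csn1s2a, a calcium-binding casein, was 5.60 in Wsh replicate 6, 4.77 in Wsh replicate 7, 2.58 in B6 replicate 7, -0.09 in B6 replicate 1 and -0.34 in Wsh replicate 2. In low-score tumours it was 0.12 in Wsh replicate 1, -1.31 in B6 replicate 5, -1.45 in Wsh replicate 5, -1.49 in B6 replicate 3 and -2.24 in B6 replicate 8. The 3 highest and the lowest of the 10 tumours were the same as for Csn2, and Wsh replicate 1 alone made the groups overlap. The difference was 3.47 (SE 1.09, limma adjusted p = 0.816), and Pearson r with Csn2 over 15 tumours was 0.91 (Spearman 0.79).

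Csn1s1, the alpha-casein gene, was 5.77 in Wsh replicate 6, 4.67 in Wsh replicate 7, 4.49 in Wsh replicate 2, 0.998 in B6 replicate 7 and -0.70 in B6 replicate 1. In low-score tumours it ran from -2.29 in Wsh replicate 1 to 1.88 in B6 replicate 8. The 3 high-score Wsh tumours stood above all others, while the 2 high-score B6 tumours lay inside the low-score range. The difference was 2.54 (SE 1.28, limma adjusted p = 0.816), and it was 6.06 among Wsh tumours alone and -0.98 among B6 tumours alone. Csn1s2b had a difference of 0.32 (SE 0.37) and varied little, from -2.19 to -0.27 in high-score and from -1.84 to -0.79 in low-score tumours.

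**Figure D2:**
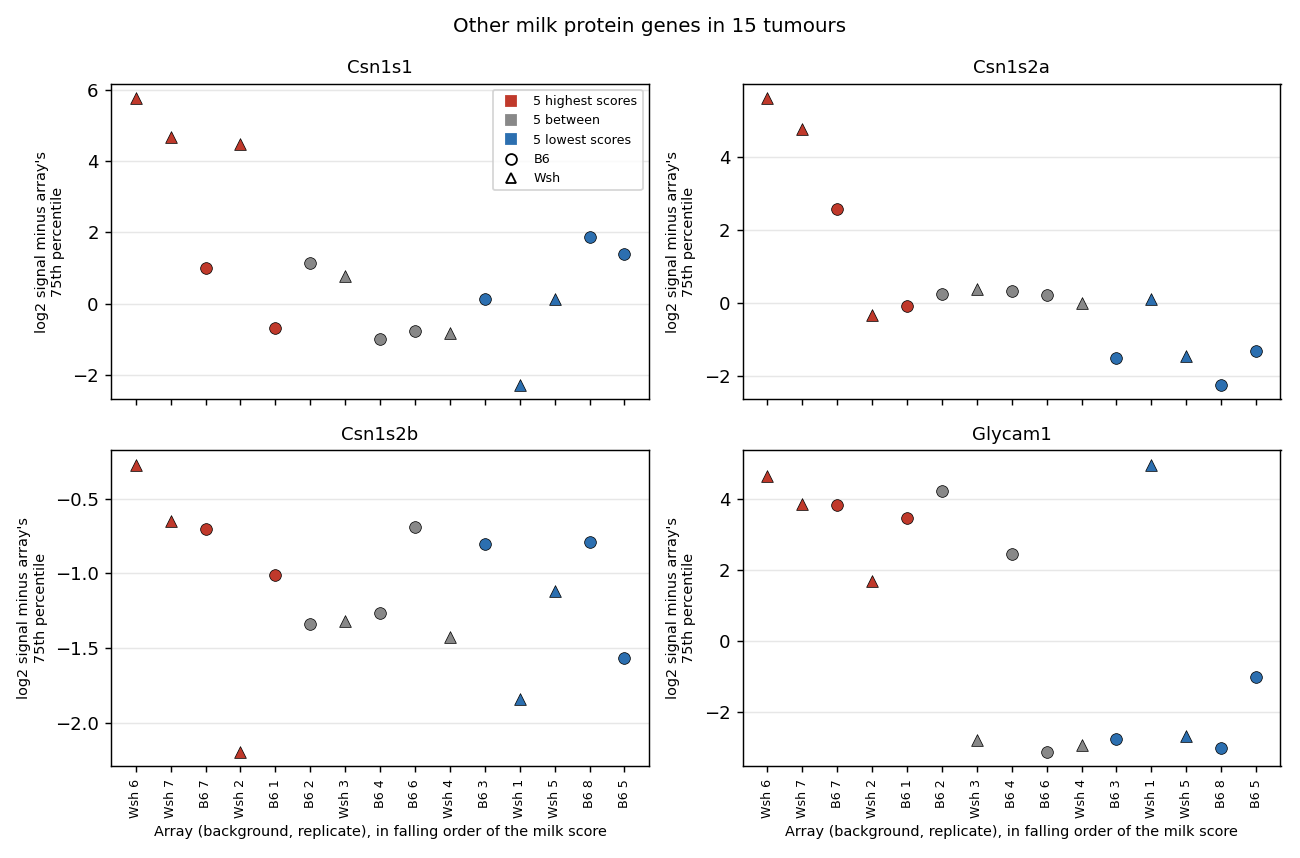
Level of Csn1s1, Csn1s2a, Csn1s2b and Glycam1 (log2 signal minus the array's 75th percentile, each panel with its own axis) in 15 tumours, in falling order of the milk score. Points are single arrays, coloured by score group and shaped by background. Wsh replicates 6 and 7 are high in Csn1s1 and Csn1s2a, and Wsh replicate 1, a low-score tumour, has the highest Glycam1 at 4.96.

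Glycam1 encodes a mucin that is found in milk and is also made by the high endothelial venules of lymph nodes. It was 4.65 in Wsh replicate 6, 3.85 in Wsh replicate 7, 3.83 in B6 replicate 7, 3.47 in B6 replicate 1 and 1.70 in Wsh replicate 2. In low-score tumours it was 4.96 in Wsh replicate 1, the highest of the series, and between -3.01 and -1.01 in the other 4. The difference was 4.08 (SE 1.40, limma adjusted p = 0.816), and 5.96 (SE 0.66, limma adjusted p = 0.00273) without Wsh replicate 1. Over the 15 tumours its Pearson r was 0.98 with the mean of the B and plasma cell list and 0.68 with Csn2. The part of lymph node tissue in its level was not tested.

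**Figure D3:**
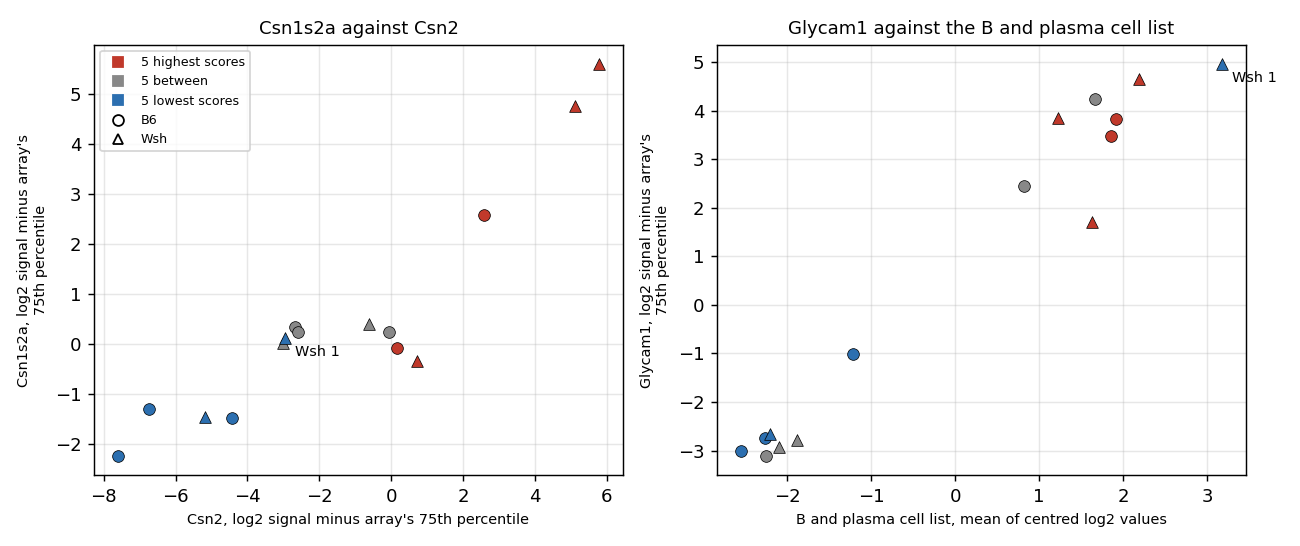
Left, Csn1s2a against Csn2, both as log2 signal minus the array's 75th percentile. Right, Glycam1 on the same scale against the mean of the B and plasma cell list (log2 values centred on each gene's mean over 15 arrays). Each point is 1 of 15 tumours, coloured by score group and shaped by background. Wsh replicate 1 lies with the middle tumours on the left and at the top right on the right, and r is 0.91 and 0.98.

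None of the remaining milk proteins passed. Cel, the bile salt-activated lipase of milk, had 0.69 (SE 0.28, limma adjusted p = 0.816), and Lao1, an amino acid oxidase secreted into mouse milk, had 1.26 (SE 0.91). Wfdc18, a whey protein homologue, had 0.06, Mfge8, the milk fat globule protein also known as lactadherin, -0.06, Trf, transferrin, 0.03, and Pigr, the receptor that carries immunoglobulin A into milk, 0.08. Ltf, lactoferrin, had 0.53 (SE 0.41) and Lpo, lactoperoxidase, 0.74 (SE 0.48). Spp1, osteopontin, had -0.52 (SE 0.43), Muc1 -0.29 and Muc15 -0.20. Genes of transport and lactose synthesis lay near 0, with 0.15 for B4galt1, the galactosyltransferase that Lalba works with, -0.14 for the glucose carrier Slc2a1, 0.09 for the UDP-galactose carrier Slc35a2, 0.30 for the zinc carrier Slc30a2, 0.08 for the phosphate carrier Slc34a2 and -0.13 for the calcium pump Atp2b2. Pthlh, which encodes a hormone that the lactating gland makes, had -0.16. The groups overlapped in B4galt1, Slc2a1 and Slc35a2, as they did in Lalba.

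Milk fat genes did not separate the groups. Of 26 members, all tested, 19 lay above 0 and 0 passed the adjusted threshold. The median was 0.24 (0.71 without Wsh replicate 1 and -0.57 with a covariate for B and plasma cells). At an unadjusted p under 0.05, 0 were higher and 1 lower, against 3.05% and 2.6% of all genes. The lower gene was Vldlr, a receptor for triglyceride-rich lipoprotein (-0.47, SE 0.18). Plin2, the coat protein of lipid droplets, was between 3.86 and 4.68 in high-score and between 3.31 and 4.31 in low-score tumours (0.51, SE 0.24). Thrsp, which stimulates fatty acid synthesis, had 1.09 (SE 0.56) and Olah, the thioesterase that releases medium-chain fatty acids for milk, 1.11 (SE 0.75). Btn1a1 and Xdh, which wrap the fat globule in membrane, had -0.13 and 0.15. For the synthesis enzymes the values were 0.36 for Fasn, 0.54 for Acaca, 0.06 for Acly, 0.42 for the citrate carrier Slc25a1, -0.13 for Me1 and -0.66 for Aldoc. The desaturases and the elongase had 0.30 (Scd1), -0.38 (Scd2) and -0.13 (Elovl5). The enzymes that join fatty acids to glycerol had 0.11 (Gpam), 0.10 (Gpat4), 0.17 (Lpin1), 0.39 (Dgat1) and 0.73 (Dgat2). Genes that fat cells also express had 1.10 (Cd36), 1.02 (Lpl), 0.44 (Cidea) and -0.48 (Fabp3), and the regulators Srebf1 and Insig1 had 0.09 and 0.32. The adipocyte list is described below, and the part of fat cells in the milk fat genes was not tested.

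The prolactin, STAT5 and ELF5 genes had differences on both sides of 0. Of 18 tested among 20 members (Prl and Igf2 were under the filter), 8 lay above 0, the median was -0.03, and 0 passed at the adjusted or at the unadjusted threshold. Elf5 was between 3.64 and 4.52 in high-score and between 3.65 and 4.39 in low-score tumours (-0.03, SE 0.22). Stat5a was between 2.28 and 3.32 and between 2.01 and 3.24 (0.03, SE 0.27), and Stat5b had -0.07. Prlr, the prolactin receptor, had 0.19 (SE 0.20) and Jak2 -0.15. The groups overlapped in Elf5, Prlr, Jak2 and both STAT5 genes.

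Targets and restraints of the pathway also lay on both sides of 0. Cish and Socs2, which STAT5 induces, had 0.18 and -0.17, and Socs1, Socs3 and Cav1, which restrain JAK2 signalling, had 0.23, -0.40 and 0.21. The cooperating factors Nr3c1 (the glucocorticoid receptor), Nfib, Gata3 and Ehf had -0.08, -0.24, -0.02 and -0.08. Erbb4, a receptor that activates STAT5, had 0.18, Akt1 0.10, and Tnfsf11, the RANK ligand of alveolar growth, 0.76 (SE 1.02). Id2, a helix-loop-helix factor needed for alveolar differentiation, had -0.46 (SE 0.23). These are transcript levels, and the phosphorylation of STAT5 was not measured.

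Genes of B and T lymphocytes were high in all 5 high-score tumours and in 1 low-score tumour. The B and plasma cell list had 12 of 14 members tested and all 12 above 0, with a median of 2.59 against 0.001 for all genes, and 6 higher at an unadjusted p under 0.05 (3.05% of all genes were). Its member mean was between 1.22 and 2.19 in high-score tumours. In low-score tumours it was 3.17 in Wsh replicate 1, the highest of the series, and -1.21 in B6 replicate 5, -2.21 in Wsh replicate 5, -2.27 in B6 replicate 3 and -2.55 in B6 replicate 8. Ms4a1, which encodes the B cell protein CD20, was 0.90, -0.24, 0.84, 0.01 and 0.44 in the high-score tumours in order of their score. It was 2.06 in Wsh replicate 1, -3.69 in B6 replicate 5 and between -7.66 and -7.15 in the other 3. The difference was 4.82 (SE 1.68, limma adjusted p = 0.816), and its size rests on 2 of 5 low-score arrays well above background, with 3.19 after normexp correction. Cd79b, a subunit of the B cell receptor, had 3.27 (SE 1.13) and Cr2, complement receptor 2 of B cells and follicular dendritic cells, 3.71 (SE 1.37).

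The T cell list had 14 of 14 tested members above 0, with a median of 1.31, and 5 higher at an unadjusted p under 0.05 (3.05% of all genes were). Cd8b1, a chain of the cytotoxic T cell coreceptor, was between -0.36 and 0.11 in high-score tumours, -0.48 in Wsh replicate 1 and between -4.05 and -2.84 in the other 4 low-score tumours. The groups did not overlap (2.54, SE 0.59, limma adjusted p = 0.816). Cd3d had 1.84 (SE 0.70), Cd2 1.99 (SE 0.81) and Zap70, the kinase of the T cell receptor, 1.33 (SE 0.57). Without Wsh replicate 1, 8 of 12 B and plasma cell genes and 11 of 14 T cell genes passed over all genes in limma, all higher, against 1.62% of all genes. There Ms4a1 had 7.07 (SE 0.79, adjusted p = 0.00291 in limma) and Cd8b1 3.35 (SE 0.23, adjusted p = 0.000879 in limma). Of the 22 other milk genes, only Glycam1 passed in that fit, and Csn1s2a had 3.65 (SE 1.26, limma adjusted p = 0.230). None of the milk fat (26) and prolactin pathway (18) genes passed in it.

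As a description of 15 arrays, Csn2 had a Pearson r of 0.66 to the B and plasma cell mean and 0.74 to the T cell mean. The tumours between the groups were mixed, with B and plasma cell means of 1.67 in B6 replicate 2, 0.81 in B6 replicate 4 and between -2.25 and -1.88 in the other 3. Csn1s1 had an r of 0.22 and 0.23 with the same lists. When the B and plasma cell mean was a covariate, the difference of Glycam1 was 0.51 and that of Csn1s2a 2.99. Whether lymphoid tissue in the pieces bears on Csn2 was not tested.

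**Figure D4:**
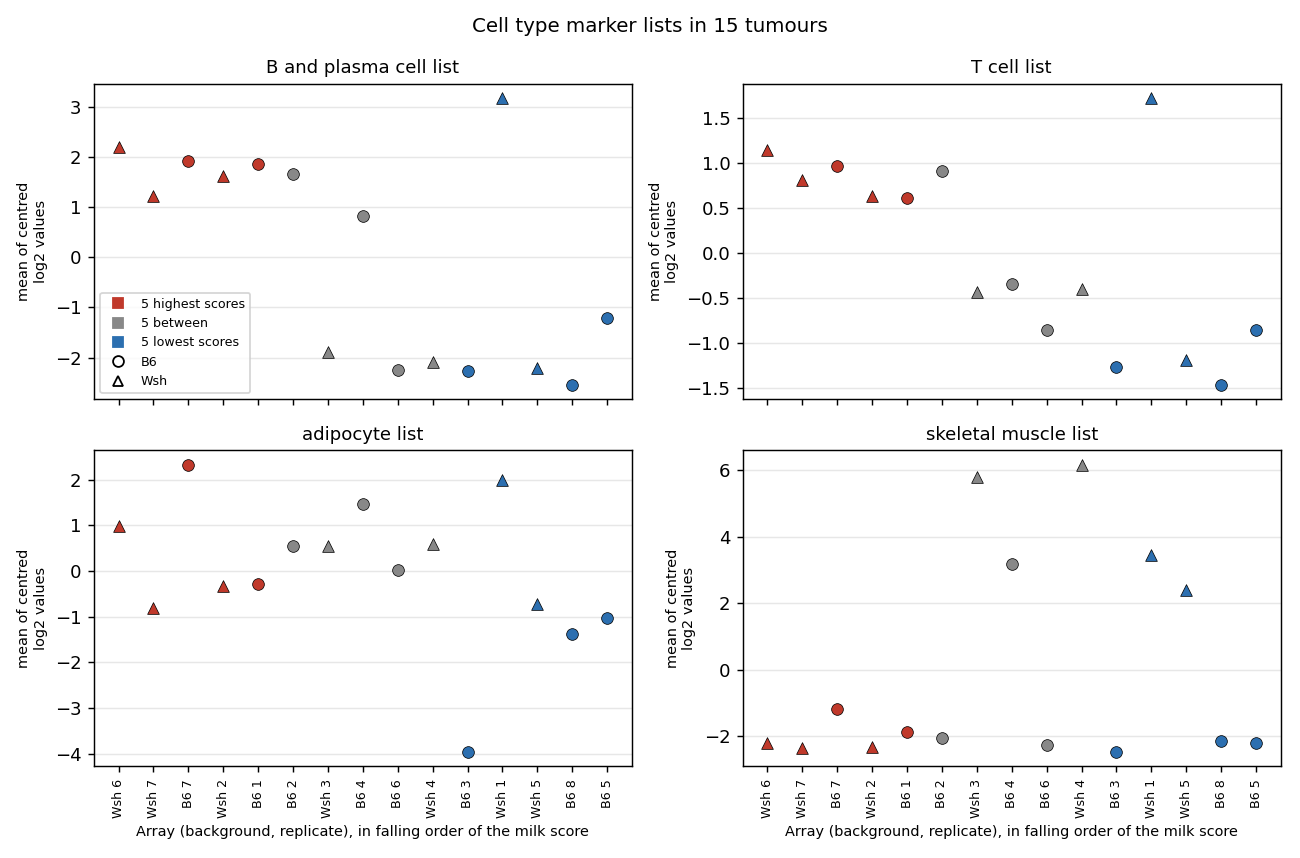
Mean of the B and plasma cell, T cell, adipocyte and skeletal muscle lists in 15 tumours, in falling order of the milk score (log2 values centred on each gene's mean over 15 arrays, each panel with its own axis). Points are single arrays, coloured by score group and shaped by background. The B and plasma cell mean is at or above 1.22 in the 5 high-score tumours and in Wsh replicate 1. It is also above that level in B6 replicate 2 (1.67), which lies between the groups. Skeletal muscle is high in 5 tumours, none of them high-score.

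Skeletal muscle genes were low in all high-score tumours and high in 2 of the 5 low-score ones. All 10 of 14 members that were tested lay below 0, with a median of -2.48 (-1.31 without Wsh replicate 1), and 7 were lower at an unadjusted p under 0.05 (2.6% of all genes were). The member mean was between -2.36 and -1.17 in high-score tumours. It was 3.46 in Wsh replicate 1 and 2.40 in Wsh replicate 5, and between -2.47 and -2.13 in the 3 low-score B6 tumours. Tnnc2, fast troponin C, was between -3.88 and -3.40 in high-score tumours and was 3.76 and 2.65 in those 2 Wsh tumours, with a difference of -3.59 (SE 1.17, limma adjusted p = 0.816). Myh2, a fast myosin chain well above background on 1 of 5 high-score arrays, had -2.95 (SE 0.89), and Pvalb, the calcium buffer parvalbumin, -2.81 (SE 0.88). Among B6 tumours alone the list's median was 0.35, and among Wsh tumours alone it was -5.00, where 5 genes passed (0 higher), the muscle genes Tnnc2, Tnnt3, Myh8, Cox6a2 and Pgam2. Myh8, Cox6a2, Pgam2 and Tnnt3 were named after their values were seen.

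Adipocyte genes had 13 of 13 tested members above 0, with a median of 1.40 (2.13 without Wsh replicate 1 and -0.67 with a covariate for B and plasma cells) and 0 at an unadjusted p under 0.05. The member mean ran from -0.80 to 2.32 in high-score tumours and from -3.96 in B6 replicate 3 to 1.98 in Wsh replicate 1 in low-score ones, so the groups overlapped. Cfd, the adipocyte protease adipsin, had 1.40 (SE 0.81), Car3, an adipocyte carbonic anhydrase, 1.54 (SE 1.06), Cidec, a lipid droplet protein, 1.67 (SE 1.31) and Lipe, hormone-sensitive lipase, 0.97 (SE 0.68). Among Wsh tumours alone the median was -0.72 and among B6 tumours alone 3.23. With the adipocyte and skeletal muscle means as covariates, Csn1s2a had 1.37, Glycam1 3.20 and Csn1s1 -1.73, and 0 genes passed over all genes.

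**Figure D5:**
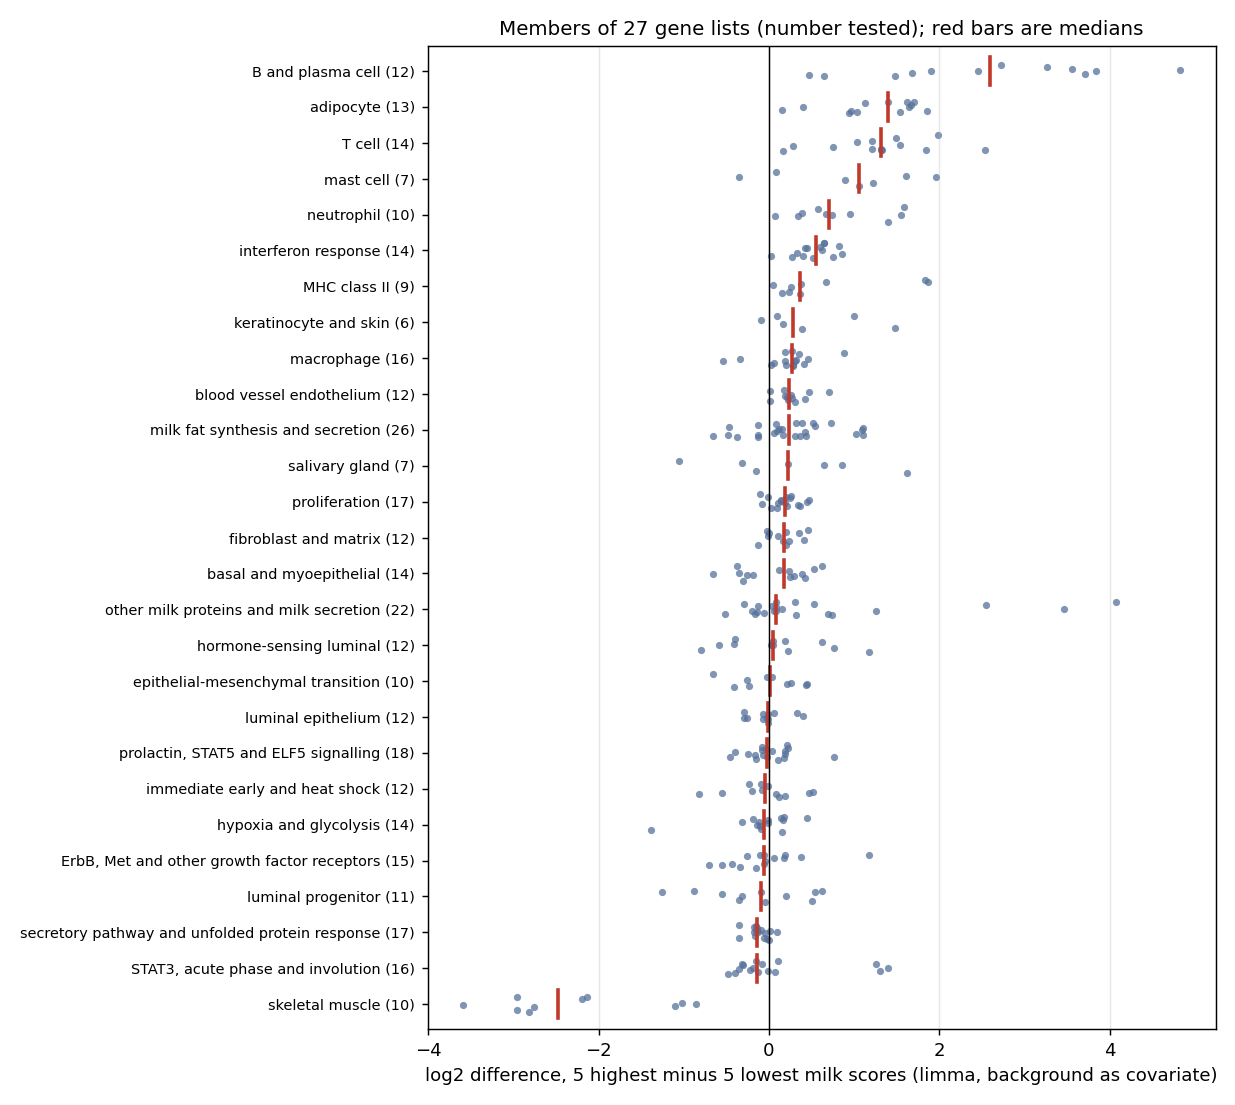
Difference between high-score and low-score tumours (log2, limma with background as covariate) for every tested member of 27 gene lists, ordered by list median, with the number tested in parentheses. Each point is 1 gene, its vertical place within a row is arbitrary, and red bars are medians. No gene passed the adjusted threshold, B and plasma cell genes lie farthest right (median 2.59) and skeletal muscle genes farthest left (median -2.48).

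Other immune lists lay above 0 with smaller medians. Interferon response genes had 14 of 14 above 0 (median 0.56). Mx2, Rsad2 and Cxcl10 had 0.65, 0.85 and 0.75. Class II antigen presentation genes had 9 of 9 above 0 (median 0.37), with 1.87 for H2-Oa and 1.83 for H2-Ob, which are known from B cells, 0.67 for the transactivator Ciita and 0.26 for H2-Ab1. Neutrophil genes had 10 of 10 above 0 (median 0.70) and macrophage genes 14 of 16 (median 0.28). Without Wsh replicate 1 these medians were 1.35 and 0.59, and with a covariate for B and plasma cells they were -0.43 and -0.26. The named members had 1.55 for S100a9, 1.40 for Camp, 1.59 for Retnlg, 0.74 for Mmp8, 0.87 for Mertk, 0.46 for Cd68 and 0.41 for Lyz2, where Retnlg and Mmp8 were well above background on 2 of 5 low-score arrays. Mast cell genes had 6 of 7 above 0 (median 1.05) in a fit that holds background, with 1.60 for Hdc, 1.05 for Gata2 and 0.89 for Tpsb2. Mcpt4 passed the filter through the 5 B6 arrays alone, where it was 1.74 and -0.77 in high-score and between -4.48 and -1.66 in low-score tumours. Endothelial genes had 12 of 12 above 0 (median 0.24; Tie1 0.46, Tek 0.71, Eng 0.30, Kdr 0.23) and fibroblast genes 9 of 12 (median 0.18; Thy1 0.41, Dcn 0.46, Fap 0.36, Col1a2 0.19). None of these genes passed over all genes in limma. Without Wsh replicate 1, 3 of 9 class II genes passed (Ciita, H2-Oa and H2-Ob, all higher), against 1.62% of all genes. The class II median was then 0.64, and the medians of endothelial and fibroblast genes were 0.51 and 0.44. With a covariate for B and plasma cells the medians of these 3 lists were -0.22, -0.36 and -0.44.

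Lists of the tumour epithelium itself had medians near 0 in the main fit, with members on both sides. Luminal epithelium genes had 3 of 12 above 0 (median -0.02), with -0.29 for Epcam, -0.26 and -0.30 for the claudins Cldn3 and Cldn7 and 0.40 for Cldn4. Luminal progenitor genes had 4 of 11 above 0 (median -0.09), with -1.26 for Tspan8, -0.88 for Aldh1a3, -0.56 for the Notch target Hey1 and 0.54 for Lbp. Hormone-sensing luminal genes had 8 of 12 above 0 (median 0.05), with 1.17 for Areg, 0.63 for Prom1, -0.80 for Greb1 and -0.58 for Cited1. Basal and myoepithelial genes had 8 of 14 above 0 (median 0.18), with 0.53 for Krt14, 0.24 for Trp63, 0.39 for Itgb4 and -0.66 for Oxtr, the receptor for the hormone of milk ejection. Mesenchymal transition genes had 5 of 10 above 0 (median 0.01), with -0.66 for Cdh2, 0.44 for Zeb2, -0.41 for Snai2 and -0.26 for Vim. These medians moved with the setting. The luminal epithelium median was -0.38 among B6 and 0.27 among Wsh tumours alone, and -0.21 without Wsh replicate 1. That of luminal progenitor genes was -0.26 without this tumour. The basal median ran from -0.52 among Wsh tumours alone to 1.84 with adipocyte and skeletal muscle covariates.

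Proliferation genes had 14 of 17 above 0 (median 0.19). The replication helicase genes Mcm2 (0.48, SE 0.20) and Mcm5 (0.35, SE 0.15) were higher at an unadjusted p under 0.05 (3.05% of all genes were). Plk1 and Aurkb had 0.44 and 0.24. Growth factor receptor and ligand genes had 5 of 15 above 0 (median -0.06). Among them Egfr, the receptor for epidermal growth factor, was 2.32, 2.63, 2.37, 1.96 and 2.12 in the high-score tumours in order of score and between 2.50 and 3.47 in low-score tumours. The groups touched only through Wsh replicate 7 and Wsh replicate 1 (-0.71, SE 0.21, limma adjusted p = 0.816). The receptor genes Fgfr1 and Insr had -0.43 and 0.37, and the ligand gene Nrg1 had -0.56. 

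Most secretory pathway genes lay slightly below 0. The secretory pathway and unfolded protein list had 3 of 17 above 0 (median -0.14, and 0.11 among Wsh tumours alone), with -0.36 for Dnajb9, -0.35 for Pdia4, -0.18 for Edem1 and -0.14 for Copb2. In the STAT3, acute phase and involution list 5 of 16 lay above 0 (median -0.15), and the 3 serum amyloid genes lay highest. Saa1 was between 5.37 and 5.95 in high-score and between 2.61 and 5.31 in low-score tumours (1.40, SE 0.46, limma adjusted p = 0.816), so the groups did not overlap. Saa2 had 1.31, Saa3 1.25 and Osmr -0.48. Saa1 and Saa2 are near-identical copies, so their probes may not tell them apart. Hypoxia genes had 5 of 14 above 0 (median -0.06; Car9 -1.38, Egln3 -0.31, Bnip3 0.44, Eno1 0.15) and immediate early genes 5 of 12 (median -0.05; Egr1 -0.82, Fos -0.55, Atf3 0.52, Hsph1 0.47). Salivary gland genes, which share secreted proteins with the mammary gland, had 4 of 7 above 0 (median 0.22; Car6 1.62, Smr3a -1.06, Prom2 -0.32, Smgc 0.22), and skin genes 5 of 6 (median 0.28; Calm4 1.47, Krtdap 0.999, Krt2 0.39, Krt10 0.16). The skin values rest on Wsh replicate 2, where Calm4 was 2.79 and Krtdap 3.05 against at most -4.09 and -2.93 in the other 9 tumours compared. Without it the differences were -0.005 for Calm4 and -0.15 for Krtdap, and the list's median was -0.07 with 2 of 6 above 0.

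The genes of largest moderated t did not pass either, and are named only as those at the ends of the ranking. On the high side the 12 genes were G6pc, Sbsn, Gls2, Cd8b1, Gdap1l1, Krtap12-1, Rax, Utf1, Duox1, Bahcc1, Ccr8 and Vmn1r49, with differences from 0.61 (Gls2) to 2.54 (Cd8b1). G6pc, glucose-6-phosphatase, had 1.01 (SE 0.21) but was well above background on 4 of 5 arrays in each group, and had 0.39 after normexp correction. On the low side they were Gfra3, Alpk1, Pkia, Car8, Nxnl2, Fgf9, Mro, Thumpd2, Mylip, Wls, Ctbs and Fscn2, from -1.90 (Mro) to -0.55 (Ctbs). Mro was well above background on 1 of 5 high-score and 4 of 5 low-score arrays, so its size is uncertain, and on the high side Krtap12-1 and Rax were so on 1 and 2 of 5 low-score arrays. Gfra3, a receptor of the GDNF family, had -1.36 (SE 0.26), and Wls, which carries Wnt ligands out of the cell, -0.62 (SE 0.15). Each of these genes had a limma adjusted p of 0.816.

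Across all 15 tumours, with the score as a number and background as a covariate, 1 of 22340 genes passed (0.00448%). It was Csn1s2a, with a slope of 1.77 log2 units per unit of score (SE 0.22, limma adjusted p = 0.0202). Its level followed Csn2, which makes most of the score and is regulated with it, so this is no independent finding. The call was lost when any 1 of B6 replicates 3, 7 and 8 or Wsh replicates 4, 5, 6 and 7 was left out (limma adjusted p from 0.0570 for Wsh replicate 4 to 0.179 for Wsh replicate 6), while the slope stayed between 1.60 and 1.89. Without Wsh replicate 1, 309 genes passed in the same fit. The gene next in rank was Gdap1l1 (0.53, SE 0.08, limma adjusted p = 0.106).

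The slope on the score did not differ between backgrounds for any gene after adjustment. Of 22340 genes 0 (0%) passed the interaction in limma, with a lowest adjusted p of 0.220. At an unadjusted p under 0.05 there were 3492 genes, against 1441 in the limma fit on the score. The lack of adjusted calls does not show that slopes are alike in B6 and Wsh tumours. The slope of Csn1s2a was 1.45 (SE 0.28) in B6 and 1.95 (SE 0.29) in Wsh tumours (interaction, limma adjusted p = 0.592). Csn1s1 had -0.39 (SE 0.40) in B6 and 2.20 (SE 0.37) in Wsh tumours (limma adjusted p = 0.220), and Glycam1 had 2.89 (SE 0.77) and 1.60 (SE 0.87). Skeletal muscle was present in 4 of 7 Wsh and 1 of 8 B6 tumours, by a member mean above the average of all arrays, and its part in such slopes was not tested.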

How the data were processed

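RNA of each tumour was put on its own 1-colour Agilent array (Cy3) and read with Agilent Feature Extraction 10.7.3.1, per the submitters' processing notes. The deposited scanner intensity used was the processed signal, already background-corrected per the file headers. A deposited table of the authors' log2 values, whose normalization is not given in the sources used here, served as an alternative. Control spots and outlier flags were dropped, repeated spots were averaged, log2 values were scaled to each array's 75th percentile, and the probe of highest mean stood for a gene. Genes needed a probe well above background on at least 5 of the 10 arrays (7 of 15 for the fit on the score). All genes were tested two-sided in R 4.3.3 with limma 3.58.1 (Benjamini-Hochberg) at an adjusted p of 0.05, after the code was tested on simulated data, and the score was compared between backgrounds by exact permutation. The number of arrays limits the precision.

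The members and gene lists were chosen with earlier results of these data known. Named genes are the members of the 3 milk and prolactin lists, the 12 genes of largest positive and 12 of largest negative moderated t, and up to 4 members of largest absolute t in each other list. Other genes are marked where named, and a few genes that the rule names are not reported here. Alternatives covered scaling, background correction, filter, probe choice, slide, replicate number as a block, tissue covariates and each array left out.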

Additional observations from a re-analysis of the deposited data

Results flagged for a closer look

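Of 82 groups examined by Dixon's test, 11 held a tumour far from the rest, where about 4.1 are expected at 1 in 20. Wsh replicate 1 gave 5 of these among low-score tumours. Its B and plasma cell mean was 3.17 against -2.55 to -1.21 in the other 4, its T cell mean 1.72 against -1.46 to -0.85, and its neutrophil mean 2.05 against -1.35 to -0.47. Its milk fat mean was 0.86 against -0.65 to -0.40, and its Glycam1 level 4.96 against -3.01 to -1.01.

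In the other 6, B6 replicate 8 had the lowest Csn3 of the B6 tumours at 5.75, with the rest between 6.26 and 6.63. Its array had the highest 75th percentile of the series (6406), and the part of the scaling in that level was not tested. B6 replicate 3 had a Lalba level of 6.80 among low-score tumours that otherwise lay between 5.22 and 5.42. B6 replicate 5 had a growth factor receptor and ligand mean of 0.36, with the other low-score tumours between -0.09 and -0.01. Among high-score tumours, Wsh replicate 2 had a skin mean of 2.92 against -0.49 to 0.008 and a hypoxia mean of 0.60 against -0.22 to -0.07, and B6 replicate 7 had a mesenchymal transition mean of 0.61 against -0.35 to -0.08.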

How the results depend on the processing

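The count of 0 genes between high-score and low-score tumours in limma became 1 with no filter, 70 among B6 and 5 among Wsh tumours alone, 87 on slide 2 alone, 295 with arrays chosen by Csn2 alone and 295 without the arrays that carried skeletal muscle genes. The muscle-carrying arrays left out were Wsh replicates 1 and 5, the only low-score Wsh tumours. The low-score group was then all B6, so with background as a covariate the difference came from B6 tumours alone. Leaving out 1 tumour gave 0 to 401. The count of 1 on the score over 15 tumours became 2 with no background covariate, 0 with adipocyte and skeletal muscle covariates and 0 with the B and plasma cell covariate, and 0 to 309 with 1 tumour left out. The slope of Csn1s2a was 1.68 with the first covariates (limma adjusted p = 0.999) and 1.76 with the second (limma adjusted p = 0.262), and 1.60 to 1.89 with 1 tumour left out. The interaction gave 0 to 1 genes with 1 tumour left out. The score difference between backgrounds was -0.20 on slide 1 alone and 0.27 to 0.81 with 1 tumour left out. The causes were not tested, except that fits on 1 background or slide use fewer samples. The arrays chosen by Csn2 alone, by Csn3, Wap and Lalba or with the 4 genes at unit SD, the fit without muscle arrays, and all alternatives of the score fit and the interaction were chosen after seeing the data.

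Same-numbered tumours did not pair (correlations of -0.25 to 0.21, 1 pair over 0.1). With the replicate block the count stayed 0 (lowest limma adjusted p = 0.731), the score fit gave 1 gene with a Csn1s2a slope of 1.78, and the interaction gave 0. Median scaling moved the median of all genes to -0.18, and 9 of 22 other milk genes then lay above 0. Of 185 named genes, 63 kept 1 sign in all 29 settings and 122 changed sign in at least 1. Signal over background limits Csn2, which was well above it on 2 of 5 low-score arrays.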

Other observations

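Genes that passed in limma without Wsh replicate 1 included the following 3 outside the lists, named after their values were seen. Ccr7, the receptor that leads lymphocytes to lymph nodes, was higher by 3.68 (SE 0.25, limma adjusted p = 0.000879) and Cxcr5, the receptor of B cell follicles, by 5.33 (SE 0.47, limma adjusted p = 0.00110). Hes1, a Notch target, was lower, with -1.16 (SE 0.19, limma adjusted p = 0.0185). None of these 3 passed with Wsh replicate 1 included. That low-score tumour reached the high-score range in 360 of the 363 genes called higher and in 37 of the 38 called lower.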
